A study of Mus musculus with 6 samples.

Results

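Expression of 10 lysosomal enzymes was described in germinal center (GC) and naive B cells: the cathepsins Ctss, Ctsb, Ctsz, Ctsh, Ctsd, Ctsc, Ctsl and Ctsa, the asparaginyl endopeptidase Lgmn, and the thiol reductase Ifi30. They were chosen by name, as enzymes that process protein antigens in endosomes and lysosomes, and each was found by its Ensembl identifier among the 39179 genes of the expression table. RNA-Seq was performed on B cells sorted from the ileal Peyer's patches of wild-type female C57BL/6 littermates aged 12 wk, with no transgene or treatment in either population. GC B cells were sorted as Fas+GL7+ and naive B cells, also called resting, as Fas-GL7-. For each population 3 replicates were sequenced, each from 5 mice pooled, so differences between single animals were averaged out. The naive gate was defined by the absence of Fas and GL7, with no marker that would separate naive from memory B cells.

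B cells take up antigen through the B cell receptor and deliver it to acidic, reducing endosomes and lysosomes, where proteases cut it into peptides for MHC class II molecules. The same proteases degrade the invariant chain, which occupies the class II groove until it is trimmed and exchanged for peptide. In the GC, B cells present antigen in this way to follicular helper T cells and compete for their help.

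The deposited values, fragments per kilobase of transcript scaled to mapped fragments (FPKM), were divided by the total of each pool to give TPM, which sum to 1000000 in every pool, so they describe a share of the RNA and not an amount per cell. The depth behind them was estimated at 9800000 to 11000000 reads for the GC pools and 9900000 to 16100000 for the naive pools, and is approximate because 65.7% to 71.5% of low values lay near a whole read. Markers followed the sort. Fas, which was part of the gate, lay between 108 and 119 TPM in GC and between 3.03 and 3.59 TPM in naive pools, the GC transcription factor gene Bcl6 lay between 242 and 258 TPM in GC and between 46.9 and 51.6 TPM in naive pools, and 3 resting B cell genes summed to 99.2 to 109 TPM across the GC pools and to 1040.3 to 1105 TPM in the naive pools.

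As a share of the RNA, 9 of the 10 enzymes were higher in naive than in GC B cells, and Lgmn was the exception (limma on log2(TPM + 1), Benjamini-Hochberg adjusted p under 0.05). None was higher in GC B cells. Over all 12785 genes tested, 30.1% were higher in naive and 35.5% were higher in GC B cells, so calls were common in this comparison. The balance turned with the processing, to 34.8% higher in naive and 31.9% higher in GC B cells with quantile normalization, and to 39.2% and 33.6% of 11031 genes with a correction for GC content and length. The 3 GC pools lay below all 3 naive pools for the same 9 enzymes, which was the case for 32.8% of all genes tested. Ctsl passed the filter on low values, at least 1 TPM in at least 3 pools, through the naive pools alone and so had to differ; without it, 8 of 9 enzymes were higher in naive B cells. The median log2 fold change (GC minus naive) of the 10 enzymes was -0.78, or -0.82 without Ctsl, against 0.03 for all genes tested. In bulk RNA of this kind, fewer expressing cells and less RNA per cell cannot be told apart. Nor does a lower share of the RNA show a lower amount per cell.

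**Figure D1:**
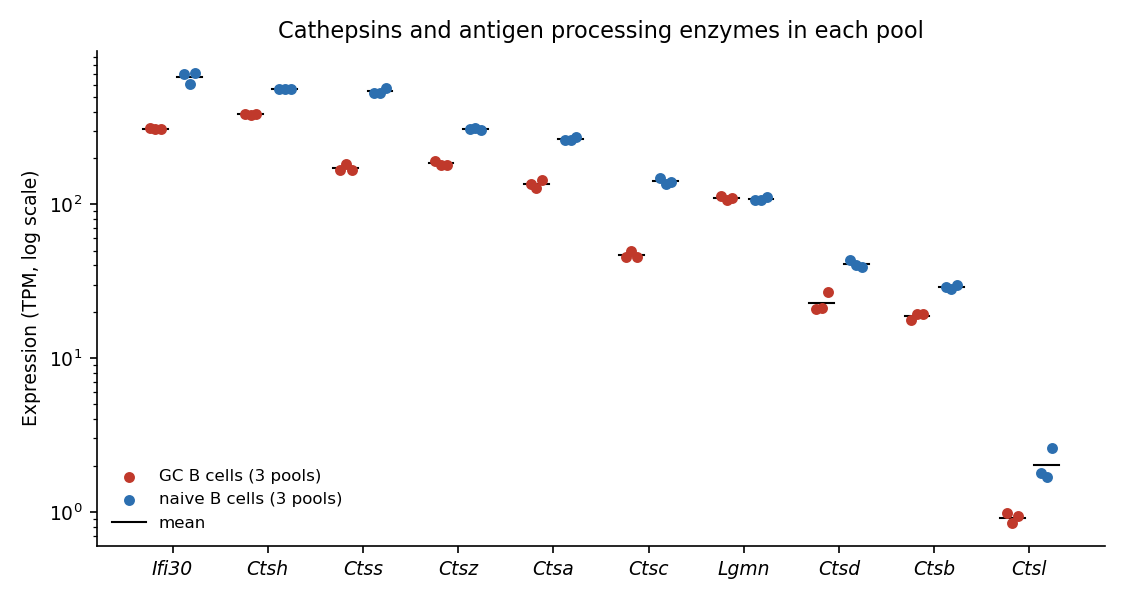
Expression of the 10 enzymes (TPM, log scale) in each of 3 GC and 3 naive pools, with the mean as a short line, ordered by the naive mean. GC points lie below naive points for 9 enzymes, and for Lgmn all 6 pools lie between 106 and 113 TPM with overlapping ranges.

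Ctss, the cathepsin that makes the late cuts in the invariant chain in B cells and dendritic cells, changed most. Its level was 166, 182 and 167 TPM in GC pools 1, 2 and 3 and 528, 526 and 571 TPM in naive pools 1, 2 and 3. The naive pools were thus far above the GC pools, with little spread within either population. The mean was 172 ± 8.81 TPM in GC versus 542 ± 25.6 TPM in naive B cells (SD, n = 3 pools each), a 3.16-fold difference (log2 fold change -1.65, SE 0.0556, limma adjusted p = 1.36e-06). Of all genes tested, 5.50% had a lower log2 fold change. Ctss (ENSMUSG00000038642) lies at chr3:95526786-95556405 in GRCm38.p6, the build of all positions given here, and shares 628 bp with the pseudogene Hmgb1-ps5.

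Ctsl (ENSMUSG00000021477, chr13:64361890-64370772) makes the same late cuts in the invariant chain in thymic cortical epithelium, and it was close to the limit of detection in these B cells. It was measured at 0.978, 0.844 and 0.934 TPM across the GC pools and at 1.78, 1.70 and 2.58 TPM in the naive pools, which corresponds to about 11 to 36 reads. All GC values were below 1 TPM and all naive values above it. The log2 fold change was -0.64 (SE 0.156, limma adjusted p = 0.0104) on a scale that understates changes at such levels, and with no filter on low values the difference was not called (adjusted p = 0.0617).

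Ctsb (ENSMUSG00000021939, chr14:63122462-63145923), a cysteine protease that cuts inside proteins and also removes dipeptides from their carboxyl end, was present at a modest level. It stood at 17.6, 19.3 and 19.3 TPM across the GC pools and at 29.1, 28.2 and 29.9 TPM in the naive pools. The populations were separate and the difference was 1.55-fold (log2 fold change -0.61, SE 0.068, limma adjusted p = 0.000308). The end of Ctsb shares 774 bp with Fdft1, a gene of sterol synthesis with a mean of 19.4 TPM in GC versus 20.1 TPM in naive B cells.

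The cysteine exopeptidases trim peptides from their ends. Ctsh (ENSMUSG00000032359, chr9:90054267-90076095), an aminopeptidase, was the most abundant of the 10 mRNAs in GC B cells, with 389, 381 and 385 TPM across the GC pools and 565, 564 and 565 TPM in the naive pools. It had the smallest change among the 9 enzymes called, 1.47-fold (log2 fold change -0.55, SE 0.0315, limma adjusted p = 1.37e-05), but the pools scattered so little that the difference was many times their spread. Ctsz (ENSMUSG00000016256, chr2:174427494-174439039), a carboxypeptidase that removes single residues, was at 192, 181 and 181 TPM across the GC pools and at 308, 313 and 305 TPM in the naive pools, a 1.67-fold difference (log2 fold change -0.74, SE 0.0408, adjusted p = 1.17e-05). Ctsc (ENSMUSG00000030560, chr7:88278024-88315861), or dipeptidyl peptidase I, which also activates the serine proteases of cytotoxic and myeloid granules, fell more steeply. Its level was 45.5, 49.7 and 45.5 TPM across the GC pools against 147, 136 and 139 TPM in the naive pools. The 3.01-fold difference (log2 fold change -1.57, SE 0.0579, adjusted p = 2.01e-06) came next after that of Ctss, and the 95% intervals of these changes, -1.79 to -1.52 for Ctss and -1.71 to -1.43 for Ctsc, overlapped.

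Ctsd (ENSMUSG00000007891, chr7:142375910-142387827), the main aspartic protease of lysosomes, was measured at 20.7, 21.1 and 26.8 TPM across the GC pools and at 43.5, 40.3 and 39.1 TPM in the naive pools. GC pool 3 was above the other GC pools, but still below every naive pool. The naive mean was 1.79 times the GC mean (log2 fold change -0.82, SE 0.110, limma adjusted p = 0.000724), and without GC pool 3 the log2 fold change was -0.94.

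Ctsa (ENSMUSG00000017760, chr2:164832872-164841032) is a serine carboxypeptidase that also protects the lysosomal sialidase Neu1 and beta-galactosidase from degradation. Its mRNA was at 135, 127 and 144 TPM across the GC pools and at 263, 261 and 272 TPM in the naive pools. The pools did not overlap and the level in naive B cells was 1.96-fold higher (log2 fold change -0.97, SE 0.0558, limma adjusted p = 1.43e-05). Neu1 moved the other way, from 30.8, 30.7 and 26.8 TPM in the naive pools to 44.1, 44.5 and 42.6 TPM in the GC pools (log2 fold change 0.56, SE 0.0723, adjusted p = 0.000613). The ratio of Ctsa to Neu1 TPM was thus 3.07, 2.85 and 3.38 in the GC pools and 8.56, 8.49 and 10.2 in the naive pools. Ctsa shares 1515 bp with Pltp and 725 bp with Neurl2 in the RefSeq annotation; Pltp, a phospholipid transfer protein, had 2.88 to 5.20 TPM across the GC pools and 28.3 to 34.7 TPM in the naive pools. Whether reads of these overlapping genes added to the change of Ctsa was not tested, since the strand of the libraries is not given in the sources used here.

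Ifi30 (ENSMUSG00000031838), the reductase GILT, opens disulfide bonds so that proteases can reach folded antigens. It was at 311, 307 and 309 TPM across the GC pools and at 705, 607 and 711 TPM in the naive pools, where it led the 10 enzymes. Naive pool 2 was the lowest of its population and still far above every GC pool. The difference was 2.18-fold (log2 fold change -1.12, SE 0.0665, limma adjusted p = 1.65e-05), and it was -1.19 on the log2 scale without naive pool 2. Ifi30 (chr8:70762773-70766663) lies entirely within the lncRNA gene 6330537M06Rik.

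Lgmn (ENSMUSG00000021190, chr12:102394082-102439728), which cuts after asparagine, starts the breakdown of some antigens and converts other cathepsins to their mature forms. It was measured at 113, 107 and 110.2 TPM across the GC pools and at 107, 106 and 111 TPM in the naive pools, so the populations overlapped. The log2 fold change was 0.03 (95% interval -0.07 to 0.14, limma adjusted p = 0.554), and this interval leaves out changes as large as those of the other 9 enzymes. Its neighbor Rin3, a regulator of endosomal Rab proteins that lies 3227 bp away, was chosen for mention after its values were seen. Rin3 was at 1.74, 1.51 and 2.23 TPM across the GC pools and at 83.5, 87.4 and 68.9 TPM in the naive pools (log2 fold change -4.84, SE 0.136, adjusted p = 6.69e-07).

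**Figure D2:**
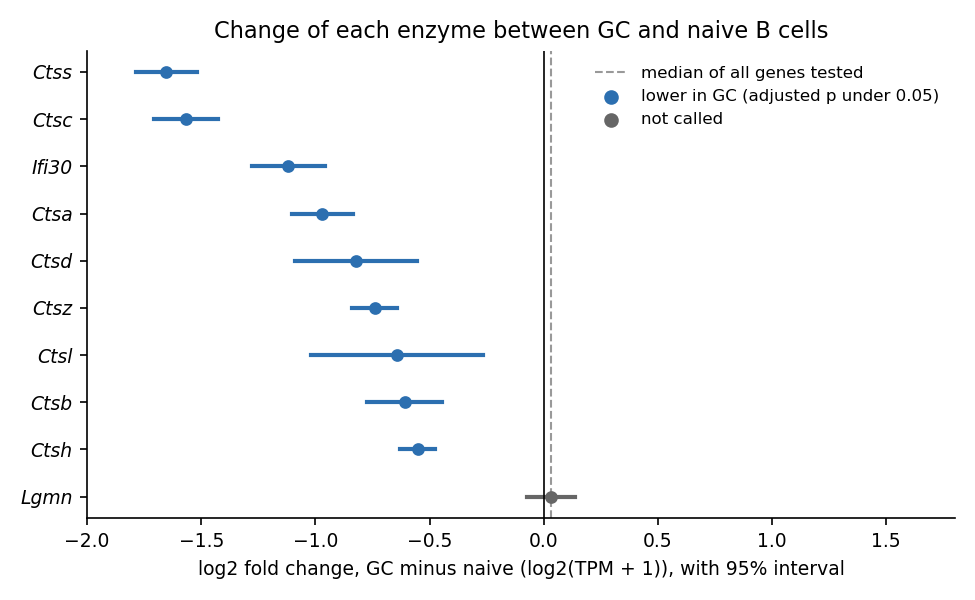
Log2 fold change (GC minus naive, log2(TPM + 1) scale) of each enzyme with its 95% interval from limma; the dashed line is the median of all genes tested, 0.03. Ctss and Ctsc lie farthest left at -1.65 and -1.57, and the interval of Lgmn includes 0.

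The 10 mRNAs together made up 1391, 1376 and 1388 TPM across the GC pools and 2698, 2583 and 2746 TPM in the naive pools, or 0.138% and 0.268% of all TPM on average. The GC sum was 0.518 of the naive sum. Because the enzymes changed by unequal amounts, the composition of the set differed as well. Ctss supplied 20.2% ± 0.626 of the summed TPM in naive and 12.4% ± 0.710 in GC B cells, and Ctsc 5.27% ± 0.191 and 3.39% ± 0.195 (SD, n = 3 pools). Ctsh went from 21.1% ± 0.641 in naive to 27.8% ± 0.127 in GC B cells, and Lgmn from 4.03% ± 0.0682 to 7.95% ± 0.165. For these 4 enzymes, and for Ctsb, Ctsz and Ifi30, the shares of the GC pools and of the naive pools did not overlap, whereas those of Ctsa, Ctsd and Ctsl did. Ctsa accounted for 9.77% in GC and 9.93% in naive B cells. The ratio of Ctss to Ctsh TPM was 0.428, 0.477 and 0.432 in the GC pools and 0.934, 0.932 and 1.01 in the naive pools. Ctss was 1.47, 1.69 and 1.51 times Lgmn in the GC pools and 4.94, 4.97 and 5.16 times Lgmn in the naive pools.

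**Figure D3:**
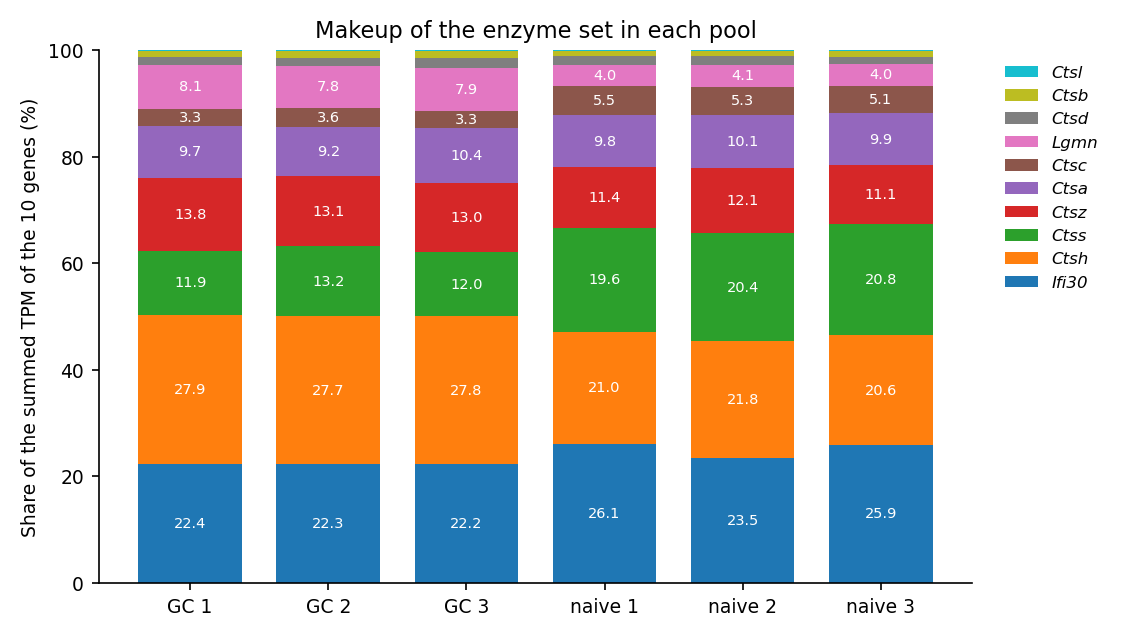
Share of each enzyme in the summed TPM of the 10 enzymes (percent), stacked, with 1 bar for each of 3 GC and 3 naive pools. Ctss takes 11.9% to 13.2% of the sum in GC pools and 19.6% to 20.8% in naive pools, and Ctsh 27.7% to 27.9% and 20.6% to 21.8%.

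On the TPM scale, which is per transcript length, the order in GC B cells was Ctsh, Ifi30, Ctsz, Ctss, Ctsa, Lgmn, Ctsc, Ctsd, Ctsb and Ctsl. Ctsz and Ctss were not separated, since their ranges over the 3 GC pools overlapped, and all other neighbors were. In naive B cells the order was Ifi30, Ctsh, Ctss, Ctsz, Ctsa, Ctsc, Lgmn, Ctsd, Ctsb and Ctsl, and only Ctsh and Ctss overlapped. The lower ranks were thus alike, while Ctss stood beside Ctsh in naive and beside Ctsz in GC B cells, and Lgmn and Ctsc exchanged places.

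Many lysosomal genes carry an E-box in their promoter, CACGTG or the longer TCACGTGA, which is bound by the factors TFEB, TFE3 and MITF, while USF1 binds the shorter core. RefSeq promoter windows on GRCm38.p6, from 250 bases before to 50 after a start site, were at hand for 8 of the 10 enzymes, all but Ctsb and Ctsh, and were searched on both strands. Both motifs read the same on either strand, and the longer one always includes the shorter. The shorter motif was found for 5 enzymes (Ctsd, Ctsl, Ctsa, Lgmn and Ifi30) and the longer one for 3 (Ctsd, Ctsa and Ifi30). Among 27025 genes with a window, 8.09% held the shorter and 1.12% the longer motif. The sites are printed 5′ to 3′ on the strand of the gene, with the shorter motif, or core, in capitals and its position counted from the start site of the window, to show which enzymes have the longer form and how their flanks differ:
Ctsd, core at -98, chr7:142387911-142387934, minus strand: cccgcgtctCACGTGacccgttga
Ctsa, core at -12, chr2:164833752-164833775, plus strand: gcaaactgtCACGTGatgcagatg
Ctsa, core at 5, chr2:164833769-164833792, plus strand: gcagatgctCACGTGaccagagct
Ifi30, core at -196, chr8:70766845-70766868, minus strand: caaaaacttCACGTGaccagacat
Lgmn, core at -49, chr12:102439127-102439150, minus strand: aatgtctgtCACGTGgtccatttt
Ctsl, core at -236, chr13:64370742-64370765, minus strand: gttagaagcCACGTGctgatctaa

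In the first 4 of these the core lies between T and A, as in the longer motif, and the Ctsa stretches share bases. Ctsd holds a further core at -245 without the longer form. Ctss, Ctsc and Ctsz fell without either motif in these windows, and Ctsd, Ctsa and Ifi30 fell with the longer one. The shorter alone was found for Lgmn, which was not called, and for Ctsl. Ctsl was lower in GC B cells but passed the filter on low values through the naive pools alone, and so had to differ. The start sites of the Ctsl window and of the Ctsa and Lgmn windows with a core lie inside the gene spans given above, 252, 901 and 636 bases from the outer start, so these sites do too, and the other Ctsa and Lgmn windows, at the outer start, hold no core. A match of letters is a description and binding was not measured.

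Among the factors that bind these motifs, Usf1 fell in GC B cells and Tfeb and Tfe3 were not called. Tfeb was at 114, 120.4 and 132 TPM across the GC pools and at 123, 122 and 123 TPM in the naive pools, with overlapping ranges (log2 fold change -0.01, 95% interval -0.15 to 0.14, limma adjusted p = 0.928). Usf1 was lower in GC B cells, at 107, 106 and 87.7 TPM against 155, 190 and 170 TPM in the naive pools (log2 fold change -0.77, SE 0.105, adjusted p = 0.000778). Tfe3 was not called (log2 fold change -0.14, adjusted p = 0.296), and Mitf was too low to be tested.

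Genes that work beside the 10 enzymes were counted in 8 lists of 68 genes, of which 57 were tested. Of these, 11 were higher in GC B cells, 35 were higher in naive B cells, and 11 were not called. The shares were 19.3% and 61.4%, beside 35.5% and 30.1% of all genes tested, and the counts were 9 and 37 with quantile normalization and 8 and 37 with a correction for GC content and length. The 4 other lysosomal peptidases all fell in GC B cells (median log2 fold change -1.06): Dpp7, a dipeptidyl peptidase, was at 12.3 ± 1.23 TPM in GC versus 37.5 ± 0.875 TPM in naive B cells (adjusted p = 1.20e-05), and Prcp, a prolylcarboxypeptidase, at 21.6 ± 0.871 and 50.7 ± 1.78 TPM (adjusted p = 8.23e-06; limma, n = 3 pools each).

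The remaining cathepsins and the cystatins were called in both directions or not at all. Ctse, an aspartic protease of endosomes, was the only cathepsin called higher in GC B cells, at 27.4, 30.1 and 24.4 TPM against 12.6, 14.6 and 12.4 TPM in the naive pools (log2 fold change 0.99, SE 0.106, limma adjusted p = 0.000242). The ratio of Ctse to Ctsd, the lysosomal aspartic protease, was 1.33, 1.42 and 0.912 in the GC pools and 0.289, 0.362 and 0.317 in the naive pools. Ctso was not called (log2 fold change -0.18, adjusted p = 0.150), although it was called higher in naive B cells under quantile, median ratio and FPKM scaling and with a correction for GC content and length. Ctsf, Ctsg, Ctsk and Ctsw were too low to be tested. Among the inhibitors, Cst3, the secreted cystatin C that blocks cysteine cathepsins, fell from 222, 207 and 215 TPM in the naive pools to 135, 126 and 128 TPM in the GC pools (log2 fold change -0.73, SE 0.0479, adjusted p = 2.64e-05), while the cytosolic inhibitor Cstb was not called (log2 fold change 0.18, adjusted p = 0.218). Cst3 fell less than Ctss, and the ratio of Cst3 to Ctss TPM was 0.812, 0.692 and 0.766 in the GC pools and 0.421, 0.395 and 0.377 in the naive pools.

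Of 13 glycosidases and lipases, 10 were higher in naive B cells and 2 in GC B cells (median log2 fold change -0.99). Hexa, a subunit of a lysosomal hexosaminidase, was at 15.2, 13.8 and 14.6 TPM across the GC pools and at 72.0, 69.5 and 68.8 TPM in the naive pools (log2 fold change -2.19, SE 0.0615, limma adjusted p = 6.69e-07). The 2 that were higher in GC B cells were Neu1, described above, and Gusb, the beta-glucuronidase (log2 fold change 0.46, adjusted p = 0.00251), named because they were few. Of 8 lysosomal membrane and sphingolipid activator proteins, 6 were higher in naive B cells (median -0.82). Psap, the precursor of the saposins that help these hydrolases reach their lipids, was at 107, 102 and 103 TPM across the GC pools and at 548, 531 and 511 TPM in the naive pools, a 5.12-fold difference (log2 fold change -2.34, SE 0.0437, adjusted p = 2.02e-07) that was larger than that of any of the 10 enzymes. Scarb2, the receptor that carries glucocerebrosidase to lysosomes, was named as the only one of that list higher in GC B cells (log2 fold change 0.38, adjusted p = 0.0114).

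Most newly made cathepsins reach lysosomes by a mannose 6-phosphate tag. Of 8 genes of this sorting route that were tested, 5 were higher in naive B cells and 2 in GC B cells (median log2 fold change -0.46). Those 2 were Igf2r, the large mannose 6-phosphate receptor, at 14.3, 13.7 and 13.3 TPM across the GC pools and 5.32, 5.23 and 4.20 TPM in the naive pools (log2 fold change 1.33, SE 0.110, limma adjusted p = 7.53e-05), and Gnptab, which encodes the catalytic subunits of the enzyme that makes the tag, at 63.5 ± 1.67 TPM in GC versus 35.2 ± 6.70 TPM in naive B cells (adjusted p = 0.00184). Gnptg, the third subunit of that enzyme, went the other way (log2 fold change -0.74, adjusted p = 0.000601). So did M6pr, the other mannose 6-phosphate receptor, which was chosen for mention after its values were seen. M6pr was at 73.5, 74.2 and 70.2 TPM across the GC pools and at 105, 110 and 110 TPM in the naive pools (log2 fold change -0.57, adjusted p = 6.95e-05).

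**Figure D4:**
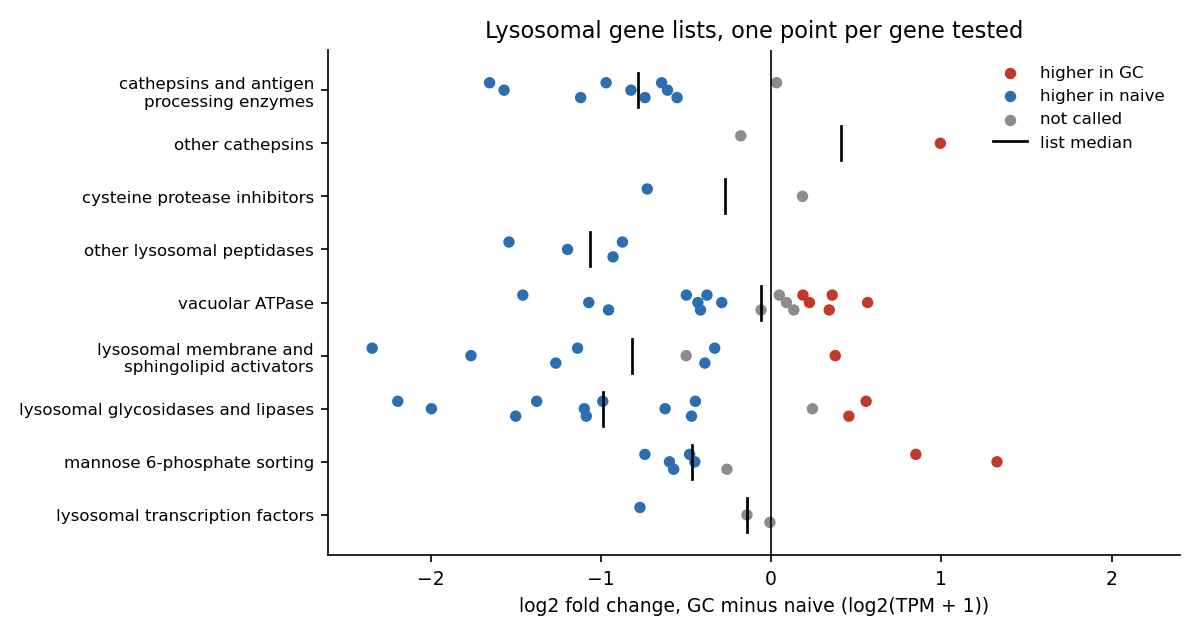
Log2 fold change (GC minus naive, log2(TPM + 1) scale) of each tested gene of the 10 enzymes and of the 8 lists, colored by its limma call, with the median of each list as a short vertical line. Most points of the hydrolase lists lie left of 0, the vacuolar ATPase lies on both sides with a median of -0.06, and Igf2r lies farthest right at 1.33.

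Other cell types that express these enzymes strongly were looked for in the same pools. The 14 macrophage and monocyte genes summed to 14.7 to 16.5 TPM across the GC pools and to 10.7 to 16.0 TPM in the naive pools; 12 of them were under 2 TPM in every pool, and 1, Fcgr1, was listed at 0 in all. Cd68, the highest of the list, was at 12.8, 11.5 and 15.0 TPM across the GC pools and at 7.02, 5.64 and 4.97 TPM in the naive pools, opposite in direction to the 9 enzymes. Without Cd68 the list went with the enzymes: the other 13 genes summed to 2.21, 3.14 and 1.55 TPM across the GC pools and to 9.02, 6.26 and 5.73 TPM in the naive pools. By mean level 10 of the 14 genes were higher in naive and 3 in GC B cells, and the naive pools lay above all GC pools for 3, Lyz2, Emr1 and Itgam. Lyz2 was at 1.38, 1.94 and 0.516 TPM in GC and at 5.28, 2.48 and 2.13 TPM in naive pools (limma adjusted p = 0.0618), and Emr1 and Itgam were too low to be tested. Of 6 dendritic cell genes, 5 were under 2 TPM in every pool. The sum was 31.5 to 35.2 TPM in the GC pools, mainly from Flt3, and 2.25 to 3.40 TPM in the naive pools. Flt3 was at 29.6, 31.9 and 32.9 TPM across the GC pools and at 1.40, 1.01 and 1.32 TPM in the naive pools. Epithelial genes did move with the enzymes: the 7 listed summed to 27.5, 47.8 and 37.2 TPM across the GC pools and to 91.8, 58.5 and 66.4 TPM in the naive pools, 4 of the 6 tested were higher in naive B cells and 1 in GC B cells, and Krt8 reached at most 29.2 TPM. The part of macrophage or epithelial RNA in the differences of the enzymes was not tested.

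The genes that followed an enzyme most closely over the 6 pools were found by Pearson's r of log2(TPM + 1) among 12123 named genes. This was done for Ifi30 as the enzyme with the highest mean and for Ctss as that with the largest change. H2afj, a histone gene, with 45.9 to 46.1 TPM across the GC pools and 69.5 to 75.5 TPM in the naive pools, was closest to Ifi30, followed by Qrfp and Hsp90b1. Those closest to Ctss were Lamp3, H2-Ab1, which encodes the beta chain of an MHC class II molecule, and Plac8. Qrfp was at 0 to 0.06 TPM in the GC pools and 2.22 to 2.86 TPM in the naive pools. Lamp3 was at 0.04 to 0.18 TPM in the GC pools and 3.96 to 4.71 TPM in the naive pools. Both passed the filter on low values through the naive pools alone and so had to differ. With 6 points in 2 separate populations r mainly reflects the difference between them, and 592 genes had r above 0.99 with Ctss and 206 with Ifi30.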

How the data were processed

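RNA-Seq was analyzed from 3 GC and 3 naive B cell pools of 5 mice each, with total RNA and the NEB Next Ultra kit. The authors trimmed adapters with cutadapt v1.9, quantified reads on NCBIm38 v75 with RSEM v1.2.25 (mean fragment length 180, SD 50), and deposited FPKM per gene and pool with 2 decimals. A further normalization between pools and the strand setting are not given in the sources used here. RSEM divides reads among similar or overlapping transcripts by a model, so such genes are less certain, and FPKM depends on the transcript length it assigns.

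TPM was FPKM divided by the pool total times 1000000. Genes that reached 1 TPM in 3 or more pools were tested with limma 3.58.1 in R 4.3.3 (lmFit, eBayes with a trend) on log2(TPM + 1), which understates changes of low genes, without pairing, and p-values were adjusted over all 12785 genes. The fit was tested on simulated data. Other steps used Python 3.11.15, numpy 2.4.6, pandas 2.3.3 and matplotlib 3.10.9. Symbols came from the NCBIM37 annotation, which named 33398 of 39179 identifiers, and coordinates and promoter windows from RefSeq on GRCm38.p6. Depth was taken from the steps between low FPKM values for transcripts of 400 to 1000 bp, counting values within 0.1 of a whole read. No 2 pools held the same values.

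All 10 enzymes are named, and from each list up to 3 called genes with the largest change and 1 gene not called. Others are said to have been picked after their values were seen or because they were few. Beyond this rule, Tfeb and Tfe3 are both named though neither was called, and Atp6v1a is named with its sector. Some genes too low to be tested are named as well. The enzymes, lists, tests and naming rules were chosen with earlier results of these data known. Alternatives covered the pseudocount (0.1 and 0.01), filters, FPKM as deposited, median ratio and quantile scaling, the replicate block, limma without a trend, leaving out each pool and, added after seeing the data, a correction for GC content and length with and without the block. Some genes of the lists are not reported here.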

Additional observations from a re-analysis of the deposited data

How the results depend on the processing

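Of 245 alternative values for 15 results, 238 were labeled as kept. A log2 fold change had to keep its direction and side of the threshold, and the summed ratio had to stay within the spread between pools. A count of genes or enzymes only had to stay within a fixed factor of the main count. For example, 3657 of 11031 genes higher in GC B cells, with a correction for GC content and length and the replicate block, was labeled as kept. The count of enzymes higher in naive B cells was 9 except under 2 alternatives. It was 8 with no filter on low values, where the log2 fold change of Ctsl, -0.64, had an adjusted p of 0.0617, and 8 at a filter of 5 TPM, where Ctsl could not be tested. Lgmn, never called, turned to -0.0199 with FPKM as deposited, -0.0087 with median ratio scaling, -0.11 with quantile normalization and -0.10 with a correction for GC content and length, alone or with the replicate block; the cause was not tested. The summed TPM of the enzymes in GC B cells was 0.518 of that in naive B cells, 0.499 with FPKM as deposited, where the pools differ in their totals, and 0.509 to 0.524 when 1 pool was left out. With 1 pool left out, log2 fold changes lay between -1.08 and -1.19 for Ifi30 and between -0.76 and -0.94 for Ctsd. The replicate block kept 9 enzymes higher in naive B cells, and over all genes it called 4342 for GC and 3618 for naive B cells, against 4540 and 3852 without it. By the labels pools share only a number, and the paper does not say whether both populations were sorted from the same mice. Deviations of same-numbered pools correlated at 0.083, 0.0225 and 0.0456, and 5 of 6 pools correlated best with their own number. That is a hint of pairing from the data, and pairing is not stated for the design. With 3 pools per population the spread covers pools and not single mice, and at about 11 to 36 reads the level of Ctsl is the least precise.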

Other observations

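The vacuolar ATPase, the pump that acidifies the compartments in which cathepsins work, is made of a membrane sector (V0) and a cytosolic sector (V1), and the genes of these sectors were counted separately after their values were seen. Of 7 V0 genes, 5 were higher in naive B cells and none in GC B cells (limma, median log2 fold change -0.38), led by Atp6v0a1 at 26.7, 23.6 and 24.7 TPM across the GC pools and 52.5, 59.96 and 48.9 TPM in the naive pools, and Atp6v0b at 147 ± 10.9 TPM in GC versus 285 ± 4.04 TPM in naive B cells (SD, n = 3 pools each). Of 8 V1 genes, 5 were higher in GC B cells and 1 in naive B cells (median 0.21), among them Atp6v1a at 33.3, 28.1 and 31.1 TPM across the GC pools and 20.6, 22.2 and 18.7 TPM in the naive pools. The accessory subunit gene Atp6ap1 was at 64.0 ± 7.73 TPM in GC versus 176.9 ± 7.11 TPM in naive B cells. The counts for V0 were the same under quantile, median ratio and FPKM scaling and with a correction for GC content and length, whereas the number of V1 genes higher in GC B cells was 4 with FPKM as deposited and with the replicate block, 3 with quantile normalization, and 2 with that correction, under which 2 were higher in naive B cells. Over all genes tested, 35.5% were higher in GC and 30.1% in naive B cells, and the shares were 33.6% and 39.2% with that correction. Under the correction, V1 genes higher in GC B cells were thus no more frequent than among all genes. A test of the difference between the sectors was not run.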
